A study of Homo sapiens with 5 samples.

Results

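The genes examined here are 39 protein-coding neighbours on the long arm of chromosome 12, in band 12q21, listed from KCNC2 on the centromeric side to BTG1 on the telomeric side. They were gathered because SYT1, SLC6A15 and NTS, which lie among them, had lower signals on the arrays labelled PRL-1, and the question was whether the genes around them were lower as well. The array carried 113 probe sets annotated to these genes and to no other gene, out of 54613 probe sets that are not controls. The signals of SYT1, SLC6A15 and NTS chose the region, so their 8 probe sets are described without a test, and the tests concern the other 36 genes with 105 probe sets, called neighbours here. The comparison was between a HEK293 line (human embryonic kidney cells in culture) with a stable empty pcDNA4 vector (n = 3 arrays) and one with a stable pcDNA4 plasmid for PRL-1, a protein tyrosine phosphatase (n = 2 arrays). Both lines grew in the same serum-containing medium, and each array held RNA of a separate culture. One further PRL-1 culture had been left out by the authors because its RNA did not show raised PRL-1. Each group is 1 stable line grown repeatedly, so the transgene and other differences of the lines cannot be told apart, and the spread that enters a p-value is that of cultures.

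Genes that lie side by side on a chromosome can share enhancers, chromatin marks and copy number, and a gain or loss of a segment changes the transcripts of many adjacent genes at once, whereas a change in the regulation of a single gene need not touch the next one. The 12q21 band mixes genes that nearly every cell uses with genes that are switched on in few tissues. SYT1 encodes synaptotagmin 1, the calcium sensor that triggers fusion of synaptic vesicles. SLC6A15 encodes a sodium-coupled transporter of neutral amino acids that is abundant in neurons. NTS encodes the precursor of neurotensin, a peptide of brain and gut that is secreted and acts on G protein-coupled receptors.

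Of the 66 neighbour probe sets that were bright enough to test, 0 passed a limma adjusted p of 0.05 in either direction. Over all tested probe sets 0.192% did (0.133% lower, 0.0591% higher). At so small a share, 0 calls among 66 does not set the neighbours apart from the array. The neighbours were not tested as a group. At an unadjusted p under 0.05, 8 of the 66 were lower and 3 higher, where 9.72% of all tested probe sets passed in either direction. Without the 3 that entered through vector signals alone, whose lower direction the filter favoured, 7 of 63 were lower and 3 higher. The methods' t-test at a p of 0.05 gave 9 lower and 1 higher. By it 5.01% of all tested probe sets were lower and 3.58% higher. Nearest to a call were ALX1 and LIN7A, which lie between SYT1 and NTS, with PRL-1 signals 1.88-fold and 2.43-fold lower. Both were called when vector replicate 3 was left out. In the same stretch PAWR, PPP1R12A, ACSS3, CCDC59, METTL25 and TMTC2 gave log2 differences between -0.22 and 0.35 in the brightest tested probe set of each. MYF6 gave -1.87 there, but it passed the filter only through its vector signals. PPFIA2, too dim to test, gave -1.80 in its brightest probe set.

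The values are MAS5 signals, a linear measure of the brightness of a probe set, and tests were run on probe sets that reached 100 on 2 or more arrays. Vector replicate 3 stood apart, with a correlation of log2 signals to the other arrays of 0.938 to 0.947, compared with 0.954 to 0.964 among those arrays. The 4 probe sets of PTP4A1, which encodes PRL-1, gave log2 differences of 0.06 to 0.15 (limma adjusted p from 0.737 to 0.892), so this gene does not check the labels, and each direction below refers to the arrays labelled PRL-1. Of 11 markers of kidney epithelium and its progenitors that the array names, 10 were tested, with 18 probe sets. Of these probe sets 0 were called by limma, where 0.192% of all tested probe sets were. At an unadjusted p under 0.05, 1 was lower and 0 were higher, where 9.72% of all tested probe sets passed in either direction. The summed signal of the 11 markers was 8164 to 8919 on vector arrays and 7279 to 7812 on PRL-1 arrays. Among 6 endothelial markers 4 stayed under 100 on every array, with summed signals of 591 to 888 on vector and 472 to 542 on PRL-1 arrays. For 6 blood markers on the array the sums were 1189 to 1542 and 953 to 1238, with 2 under 100 on every array. The blood sums of the groups overlapped. Whether differences in these markers have a part in the results below was not tested. In bulk RNA, fewer cells that express a gene and less RNA of it per cell cannot be told apart.

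Promoter sequences from RefSeq (GRCh38.p14; 250 bases before to 50 after a transcript start) were found for 31 of the 39 genes, in 46 windows, and show how unlike the starts of these neighbours are. The windows below, written 5′ to 3′ on the strand of the gene, belong to NTS and SYT1, which were lower, to LIN7A, which was near a call, and to PAWR, which was not lower. Capitals mark CpG, a C followed by a G, which reads the same on both strands.
NTS (chr12:85874045-85874344, plus strand): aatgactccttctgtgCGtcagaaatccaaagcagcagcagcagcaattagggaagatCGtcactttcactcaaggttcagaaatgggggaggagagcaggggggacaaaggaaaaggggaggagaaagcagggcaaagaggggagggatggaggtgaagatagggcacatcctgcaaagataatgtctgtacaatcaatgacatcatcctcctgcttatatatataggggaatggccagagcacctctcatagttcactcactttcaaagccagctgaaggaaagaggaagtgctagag
SYT1 (chr12:78864524-78864823, plus strand): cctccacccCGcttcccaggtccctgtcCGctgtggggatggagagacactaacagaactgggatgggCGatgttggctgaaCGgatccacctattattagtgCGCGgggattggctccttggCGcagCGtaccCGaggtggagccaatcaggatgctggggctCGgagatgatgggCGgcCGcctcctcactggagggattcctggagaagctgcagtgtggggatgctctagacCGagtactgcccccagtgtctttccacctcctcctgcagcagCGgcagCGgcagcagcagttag
LIN7A (chr12:80937885-80938184, minus strand): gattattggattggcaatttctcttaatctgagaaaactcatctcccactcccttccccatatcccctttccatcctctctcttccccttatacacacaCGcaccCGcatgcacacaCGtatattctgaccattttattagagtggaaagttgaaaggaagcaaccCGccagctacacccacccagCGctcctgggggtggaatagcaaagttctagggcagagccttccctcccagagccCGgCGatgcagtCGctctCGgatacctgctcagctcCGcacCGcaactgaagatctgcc
PAWR (chr12:79690915-79691214, minus strand): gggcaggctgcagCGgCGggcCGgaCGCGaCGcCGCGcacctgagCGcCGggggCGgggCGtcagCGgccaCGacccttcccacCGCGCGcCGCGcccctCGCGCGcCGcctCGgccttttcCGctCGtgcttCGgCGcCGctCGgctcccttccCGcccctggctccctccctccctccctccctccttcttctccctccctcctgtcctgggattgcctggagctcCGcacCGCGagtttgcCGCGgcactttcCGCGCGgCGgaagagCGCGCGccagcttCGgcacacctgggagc
The NTS window held 2 CpG, a number that 81.8% of the 35116 windows in the table exceed. That of SYT1 held 15 and that of LIN7A 11, near the median of 14 over all windows, and a second LIN7A window held 19. The PAWR window shown held 44, a number that 3.48% of all windows exceed, and its second window held 32, which 17.2% exceed. Among the other genes between SYT1 and NTS, METTL25 had 26, TMTC2 18, CCDC59 19 and 27, PPP1R12A 2, 11, 27 and 30, MYF6 1, MYF5 11, RASSF9 6 and PPFIA2 0, 0 and 17, so windows of a single gene could differ widely. The median over the 46 windows was 19. The letters TATAAA, searched on both strands, occurred in 6 of the 46 windows (13%, against 11.5% of all windows), of MYF5, MYF6, PPFIA2, KITLG, EPYC and BTG1. These are matches of letters and not measured sites. No window was found for SLC6A15 or ALX1, and whether the number of CpG goes with a lower signal was not tested.

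For SLC6A15, all 5 probe sets were lower on both PRL-1 arrays than on any vector array. The brightest in vector cells (206376_at) gave 1533, 1507 and 1086 on the vector arrays (mean 1375 ± 251, SD) and 3.03 and 4.28 on the PRL-1 arrays. Taking a signal of 100 as the limit below which a level has no exact value, the difference is at least 13.6-fold. Probe set 240419_at gave 830.2, 868 and 368 against 24.8 and 9.01, at least 6.42-fold lower. Probe sets 232263_at and 239352_at were lower as well, by at least 7.62-fold for the former and at least 4.47-fold for the latter. The remaining one (1569916_at) read 40.04, 73.5 and 113 in vector cells against 8.23 and 5.68, too dim to test. The probe sets of SLC6A15 thus went one way.

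For SYT1 the brighter probe set (203999_at) gave 469, 599 and 533 on the vector arrays (mean 534 ± 65.3, SD) and 146 and 162 on the PRL-1 arrays (154 ± 11.3), 3.46-fold lower. Its other probe set (203998_s_at) gave 101, 190 and 116 against 3.46 and 3.996, at least 1.30-fold lower. Unlike SLC6A15, SYT1 kept a signal above 100 on the PRL-1 arrays through its brighter probe set. NTS has a single probe set, which gave 329, 348 and 293 in vector cells and 7.97 and 34.5 on the PRL-1 arrays, at least 3.22-fold lower. The vector arrays and the PRL-1 arrays did not overlap in any of the 8 probe sets, as the choice of these genes fixes.

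**Figure D1:**
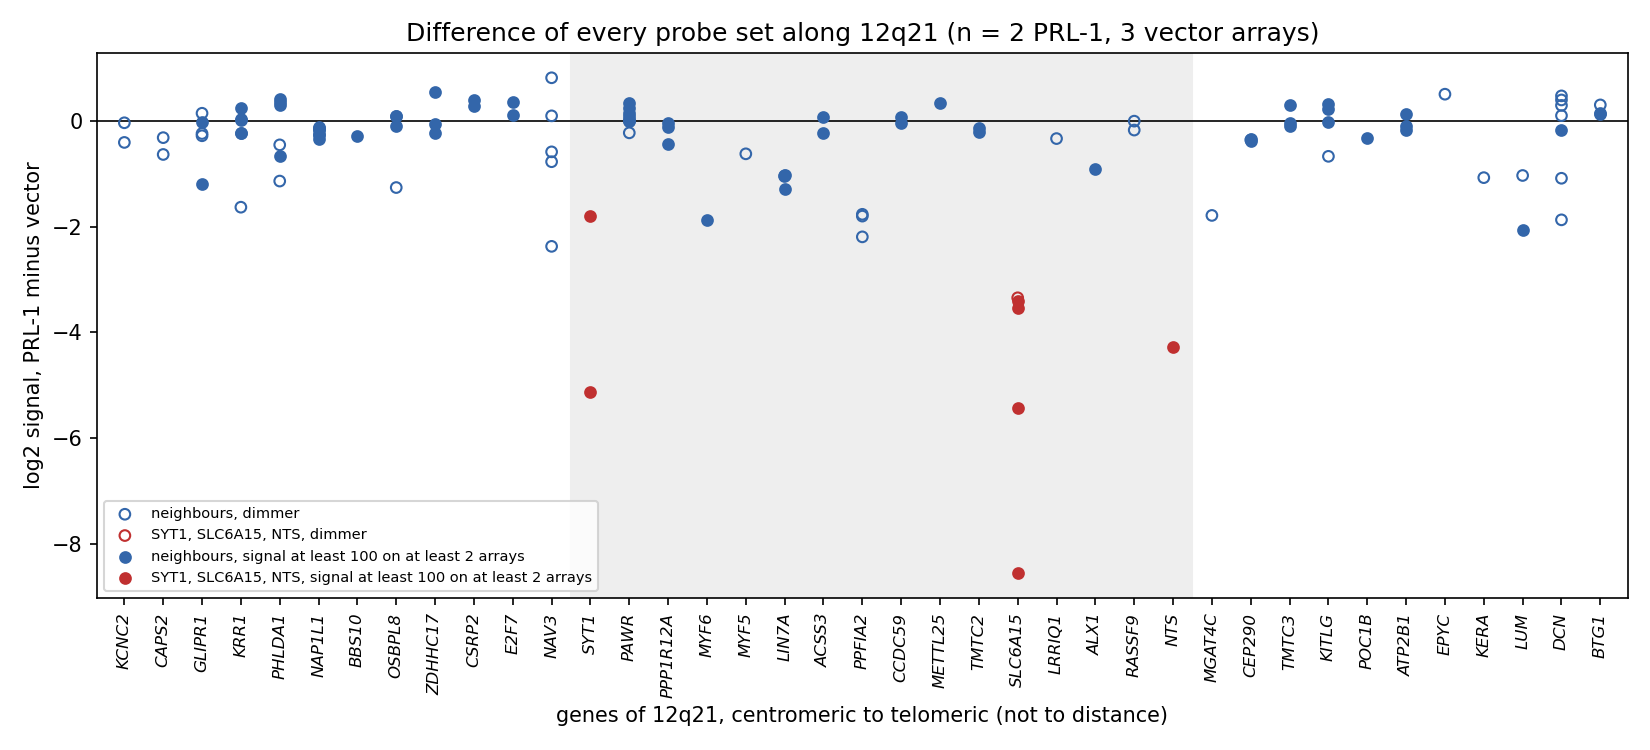
Log2 difference in MAS5 signal, PRL-1 minus vector, of all 113 probe sets (y axis) by gene in chromosome order (x axis, evenly spaced). Filled points had a signal of at least 100 on at least 2 arrays and open points were dimmer; the shaded stretch runs from SYT1 to NTS. SYT1, SLC6A15 and NTS (red) lie at -1.79 or lower, while most filled neighbours (blue) lie near 0 on both sides of the stretch and within it.

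Within the stretch from SYT1 to NTS lie 13 neighbours, and these asked most directly whether the lower signals extend from gene to gene. They carry 31 probe sets, of which 21, for 9 genes, were tested. Of these 0 were called by limma, where 0.192% of all tested probe sets were. At an unadjusted p under 0.05, 4 were lower and 1 was higher, where 9.72% of all tested probe sets passed in either direction. Without the 2 probe sets that entered through vector signals alone, 3 of 19 were lower and 1 was higher at that p. LIN7A, a PDZ adaptor of the LIN-2, LIN-7 and LIN-10 complex at neuronal and epithelial junctions, gave 373, 362 and 281 on the vector arrays and 118 and 162 on the PRL-1 arrays (227929_at). The arrays labelled PRL-1 were both below all vector arrays. The log2 difference was -1.28 with a 95% interval of -1.84 to -0.72 and a limma adjusted p of 0.153. A second tested probe set of LIN7A (206440_at) read 105, 86.7 and 105 against 55.3 and 42.6, and it entered the test only through its vector signals (log2 difference -1.02, limma adjusted p = 0.601). In 3 of the 4 LIN7A probe sets the groups did not overlap, all lower, where this held for 16.4% of all probe sets on the array. Among them 206440_at and 241652_x_at had mean signals under 100 in both groups, and 241652_x_at was not tested.

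ALX1, a homeobox transcription factor of craniofacial mesenchyme, lies between SLC6A15 and NTS. Its only probe set gave 701, 663 and 765 in vector cells and 362 and 393 on the PRL-1 arrays, with no overlap. The log2 difference was -0.91 (95% interval -1.25 to -0.57, limma adjusted p = 0.082), the smallest adjusted p of any neighbour. Both PRL-1 signals of ALX1 stayed well above 100, unlike those of SLC6A15 and NTS.

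Neither LIN7A nor ALX1 was called in the reported fit, and whether they were called depended on vector replicate 3. Without it the limma adjusted p was 0.0393 for LIN7A and 0.0293 for ALX1, with log2 differences of -1.41 and -0.85. For LIN7A vector replicate 3 gave the lowest vector signal and for ALX1 the highest. Without it 313 probe sets in place of 65 were called over the array. With array weights, which give an array that scatters more a smaller part in the fit, the adjusted p was 0.0182 and 0.0137. Without the other arrays it ran from 0.337 to 0.868 for LIN7A and from 0.222 to 0.688 for ALX1.

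**Figure D2:**
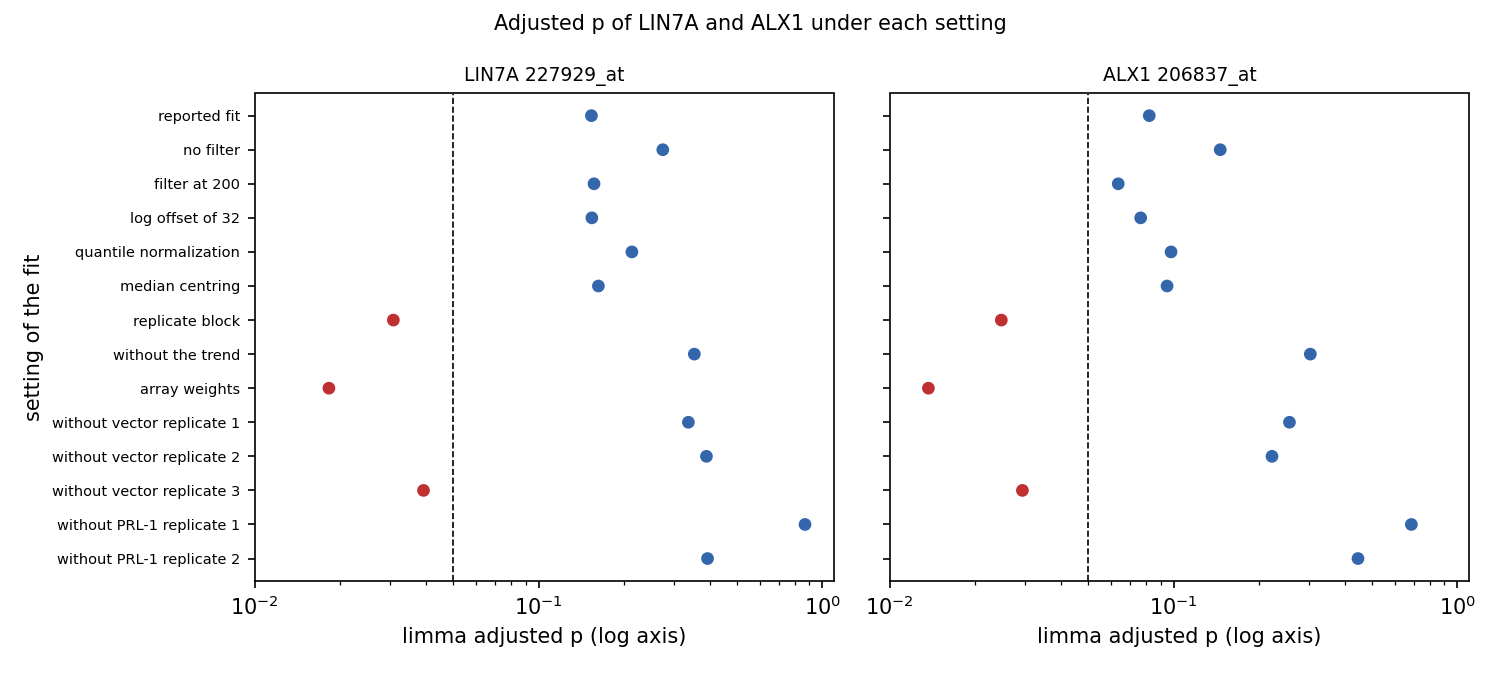
Limma adjusted p (x axis, log scale) of LIN7A and ALX1 under each setting of the fit (y axis), with a dashed line at 0.05 and settings below it in red. Both genes pass with a replicate block, with array weights and without vector replicate 3, and otherwise lie between 0.0638 and 0.868.

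MYF6, a muscle regulatory factor of the MyoD family, gave 105, 153 and 132 on the vector arrays and 24.9 and 50.1 on the PRL-1 arrays. It was at least 1.29-fold lower, without a call (limma adjusted p = 0.365), and it passed the filter only through its vector signals. Its partner MYF5, which lies beside it, did not exceed 46.4 on any array. Of 6 other skeletal muscle markers, 4 stayed under 100 on every array, and their summed signal was 208 to 320 in vector cells and 270.2 to 312 on the PRL-1 arrays.

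PPFIA2, a liprin that organises the presynaptic active zone, was too dim to test in its 3 probe sets. One of them (206973_at) gave 77.9, 103 and 88.4 on the vector arrays and 22.8 and 16.8 on the PRL-1 arrays. Another (1558295_a_at) gave 97.9, 74.4 and 123 against 18.0 and 42.8. These groups did not overlap, but the signals of both lie close to or under 100, where MAS5 values scatter widely. RASSF9, a protein of recycling endosomes, and LRRIQ1 were likewise not tested, and their groups overlapped in each of their 3 probe sets.

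Other neighbours in the same stretch gave differences nearer to 0. PAWR, a pro-apoptotic leucine zipper protein, is the first gene of the list after SYT1, and its brightest probe set (204004_at) gave 4769, 4165 and 3942 in vector cells and 5902 and 4969 on the PRL-1 arrays. This was a higher signal on both PRL-1 arrays, with a log2 difference of 0.34 (95% interval 0.04 to 0.64, limma adjusted p = 0.452). A probe set of the same gene with signals in the same range (226223_at) gave 4703, 4887 and 4067 against 4840 and 4258, a log2 difference of 0.00 (95% interval -0.28 to 0.28). The probe sets of PAWR therefore differed in size.

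PPP1R12A, the targeting subunit of myosin phosphatase, gave 1951, 1972 and 1503 against 1633 and 1715 in its brightest probe set, and the groups overlapped. Its log2 difference was -0.10 (95% interval -0.43 to 0.23). A dimmer probe set of PPP1R12A (201602_s_at) was lower on both PRL-1 arrays, with a log2 difference of -0.42 (limma adjusted p = 0.474). CCDC59, a cofactor of surfactant gene transcription, gave 3407, 3530 and 2861 against 3232 and 3113 and a log2 difference of -0.04 (95% interval -0.32 to 0.25). METTL25, a putative methyltransferase that starts beside CCDC59 on the opposite strand, gave 675, 833 and 437 against 768 and 832. TMTC2, an O-mannosyltransferase of the endoplasmic reticulum and the last listed gene before SLC6A15, gave 668, 720.4 and 477 against 570 and 502. ACSS3, a mitochondrial acyl-CoA synthetase, gave 330.2, 258 and 310.2 against 181 and 361. The groups of METTL25, TMTC2 and ACSS3 overlapped in every probe set. The 95% interval of the log2 difference was -0.21 to 0.91 for METTL25 and -0.65 to 0.26 for TMTC2.

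**Figure D3:**
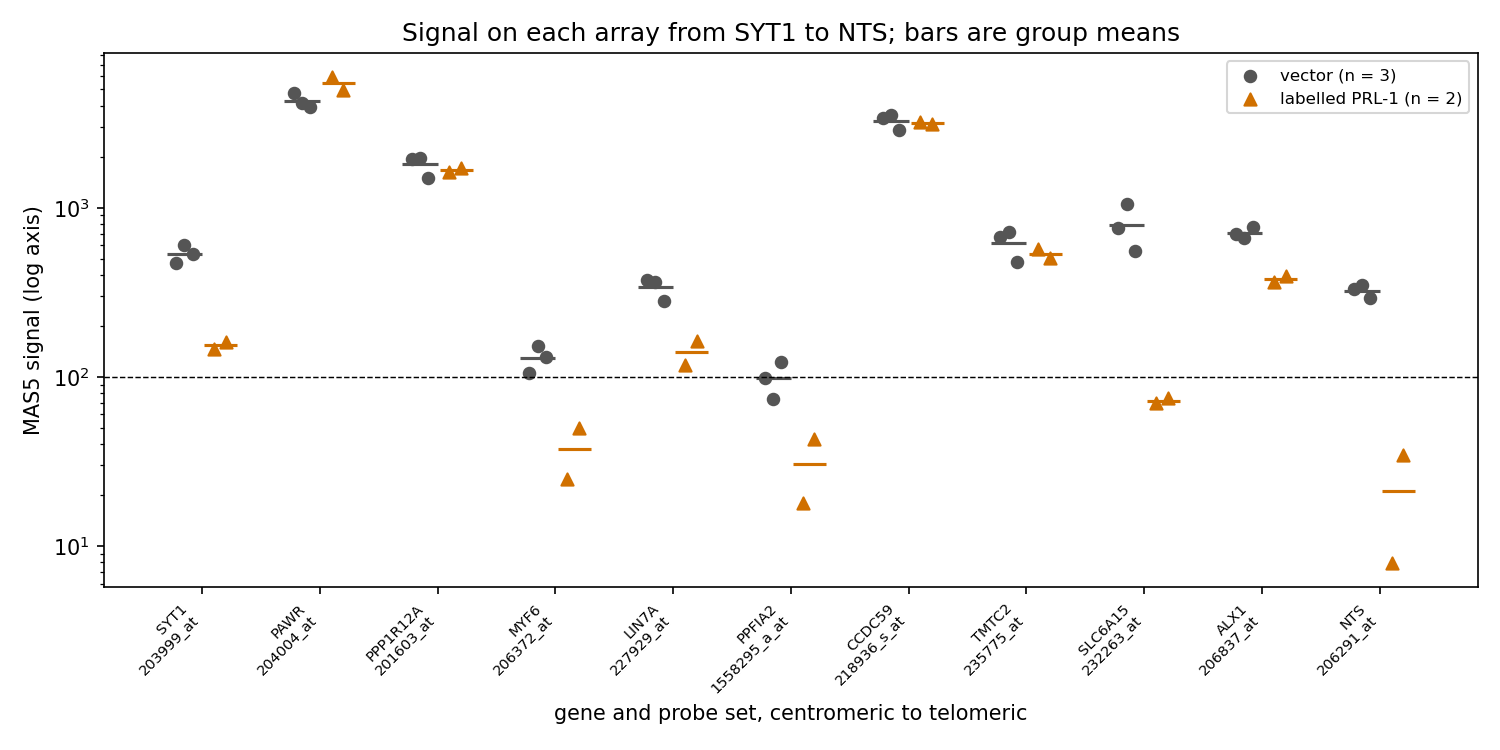
MAS5 signal (y axis, log scale) on each vector array (circles) and each array labelled PRL-1 (triangles) for 11 probe sets in chromosome order, the short lines being group means and the dashed line a signal of 100. SYT1, MYF6, LIN7A, PPFIA2, SLC6A15, ALX1 and NTS do not overlap and are lower on the PRL-1 arrays, while PAWR is higher and PPP1R12A, CCDC59 and TMTC2 overlap.

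On the centromeric side, from KCNC2 to NAV3, 12 neighbours carry 45 probe sets, of which 29 were tested. Of these 0 were called by limma, where 0.192% of all tested probe sets were. At an unadjusted p under 0.05, 2 were lower and 2 higher, where 9.72% of all tested probe sets passed in either direction. NAV3, a microtubule-binding protein of growing axons, is the list's closest gene to SYT1 on this side, and none of its 5 probe sets exceeded 93.2 on any array. In 1 of them (1562234_a_at) the PRL-1 signals were both lower, and in another both were higher, all under 100. E2F7, a repressor of E2F target genes, gave 1529, 1469 and 1399 against 1624 and 1537, with a log2 difference of 0.11 (95% interval -0.15 to 0.37). CSRP2, a LIM domain protein of smooth muscle, gave 9125, 9628 and 9170.1 in vector cells and 12784 and 11706 on the PRL-1 arrays. This log2 difference of 0.39 (95% interval 0.15 to 0.64, limma adjusted p = 0.29) had the smallest adjusted p among neighbours with higher signals, and the second CSRP2 probe set gave 0.28.

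NAP1L1, a histone chaperone and one of the brightest genes of the region, was lower on both PRL-1 arrays in 5 of its 7 probe sets. Over all tested probe sets 16.1% were lower without overlap. The log2 differences of NAP1L1 ran from -0.34 to -0.11 and none was called (smallest limma adjusted p 0.452). Its brightest probe set (213864_s_at) gave 22110, 24015 and 24285 against 21308 and 21588. OSBPL8, a lipid transfer protein at contacts of the endoplasmic reticulum with the plasma membrane, gave 4310, 3937 and 3518 against 4318 and 3139, and the groups overlapped. KRR1, a ribosome assembly factor, ran from -0.22 to 0.25 over its 5 tested probe sets, and ZDHHC17, a palmitoyltransferase, from -0.22 to 0.56 over 3. PHLDA1, which is induced by growth signals, disagreed among its probe sets, with -0.66 in the brightest and 0.30 to 0.43 in the other 3 that were tested. GLIPR1 gave -0.01 in its brightest probe set and -1.20 in the other tested one (limma adjusted p = 0.646), whose groups overlapped. KCNC2, a voltage-gated potassium channel, and CAPS2 were too dim to test.

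On the telomeric side, from MGAT4C to BTG1, 11 neighbours carry 29 probe sets, of which 16 were tested. Of these 0 were called by limma, where 0.192% of all tested probe sets were. At an unadjusted p under 0.05, 2 were lower and 0 higher, where 9.72% of all tested probe sets passed in either direction. MGAT4C, a Golgi glycosyltransferase and the gene next to NTS in the list, gave 38.2, 31.6 and 26.2 against 10.1 and 8.36, lower but far under 100 on all arrays. CEP290, a protein of the ciliary transition zone, gave 994, 1103 and 1147 against 832 and 826. The log2 difference of CEP290 was -0.38 (95% interval -0.67 to -0.09, limma adjusted p = 0.399). POC1B, a centriole protein, gave 1221, 1380.1 and 1356 against 1075 and 1029, a log2 difference of -0.32 (95% interval -0.60 to -0.05, limma adjusted p = 0.447). KITLG, the ligand of the receptor KIT, gave 1320, 1306 and 1133 against 1267 and 1204, a log2 difference of -0.02 (95% interval -0.30 to 0.27). TMTC3, ATP2B1 and BTG1 lay between -0.17 and 0.30 in their 8 tested probe sets.

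The small leucine-rich proteoglycans EPYC, KERA, LUM and DCN sit together near the telomeric end. EPYC and KERA stayed at or under 51.2 on every array. LUM gave 130.1, 181 and 13.0 on the vector arrays and 24.7 and 10.6 on the PRL-1 arrays, so vector replicate 3 was as dim as the PRL-1 arrays and the groups overlapped. DCN had a tested signal in only 1 of 7 probe sets (378, 352 and 432 against 257 and 459.5), of the kind that may bind other transcripts. Of the 6 markers of fibroblasts and matrix, the summed signal was 1258 to 1799 in vector cells and 1335 to 1463 on the PRL-1 arrays.

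The neighbours were also grouped by what they do. The 4 neuronal neighbours (KCNC2, NAV3, LIN7A and PPFIA2) had groups without overlap and a lower PRL-1 signal in 6 of 14 probe sets, where 16.4% of all probe sets on the array did, but only 2 of the 14 were bright enough to test. All 3 cilium genes (BBS10, CEP290 and POC1B) had lower signals, with log2 differences of -0.38 to -0.29 in the brightest probe set of each and no call, where 55.2% of all genes tested lay below 0. BBS10, a chaperonin-like protein of Bardet-Biedl syndrome, gave 954, 932 and 792 against 735 and 722, with a limma adjusted p of 0.546. The 5 genes of growth and cell cycle control (PHLDA1, CSRP2, E2F7, PAWR and BTG1) had a higher PRL-1 signal without overlap in 8 of 17 tested probe sets and a lower one in 0. Over all tested probe sets 12.8% and 16.1% did so. The brightest PHLDA1 probe set was lower, with overlap (log2 difference -0.66). The 3 housekeeping genes (KRR1, NAP1L1 and PPP1R12A) were lower without overlap in 6 of 15 tested probe sets, 5 of them of NAP1L1, and higher in 1. Probe sets of a gene are not independent, and the measures differ between these groups, so the groups cannot be set against each other. The 7 genes of membranes and glycosylation gave a median of -0.09 over the 5 that were tested. None of these groups held a called probe set.

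Over all 26 neighbours with a tested probe set, the median log2 difference of the brightest probe sets was -0.10, and 19 of the 26 lay below 0. Over all 14546 genes tested the median was -0.03 and 55.2% lay below 0. Of the 66 tested probe sets 3 had entered through vector signals alone, and without them 17 of 24 genes lay below 0 with a median of -0.09. Relative to the vector mean, the neighbour median was 0.07, 0.06 and -0.09 in the vector cultures, and in the PRL-1 cultures it was -0.12 and -0.08, and the lowest vector value lay between the PRL-1 values. Groups did not overlap, with a lower PRL-1 signal, in 21 of the 105 neighbour probe sets, where this held for 16.4% of all probe sets on the array, and with a higher one in 13, where it held for 9.99%. By stretch, a lower signal without overlap was found in 8 of 45 from KCNC2 to NAV3, 8 of 31 from SYT1 to NTS and 5 of 29 from MGAT4C to BTG1.

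The genes beyond the ends of the list were compared in the same way. The 40 protein-coding genes on the centromeric side of KCNC2 gave a median of -0.03 over 30 genes tested, with 16 below 0, and the 40 on the telomeric side of BTG1 gave -0.00 over 31 genes tested, with 17 below 0. Of the 78 and 71 tested probe sets 0 were called, where 0.192% of all tested probe sets were. At an unadjusted p under 0.05 limma gave 3 lower and 3 higher on the centromeric side. On the telomeric side it gave 4 lower and 1 higher, where 9.72% of all tested probe sets passed in either direction. Another 12 protein-coding genes lie between KCNC2 and BTG1 without being in the list, of which 2 were tested. DUSP6, a phosphatase of ERK chosen for mention after its values were seen, was in the opposite direction, with 194, 156 and 92.8 on the vector arrays against 345 and 352 on the PRL-1 arrays (208892_s_at), and was not called (limma adjusted p = 0.268).

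**Figure D4:**
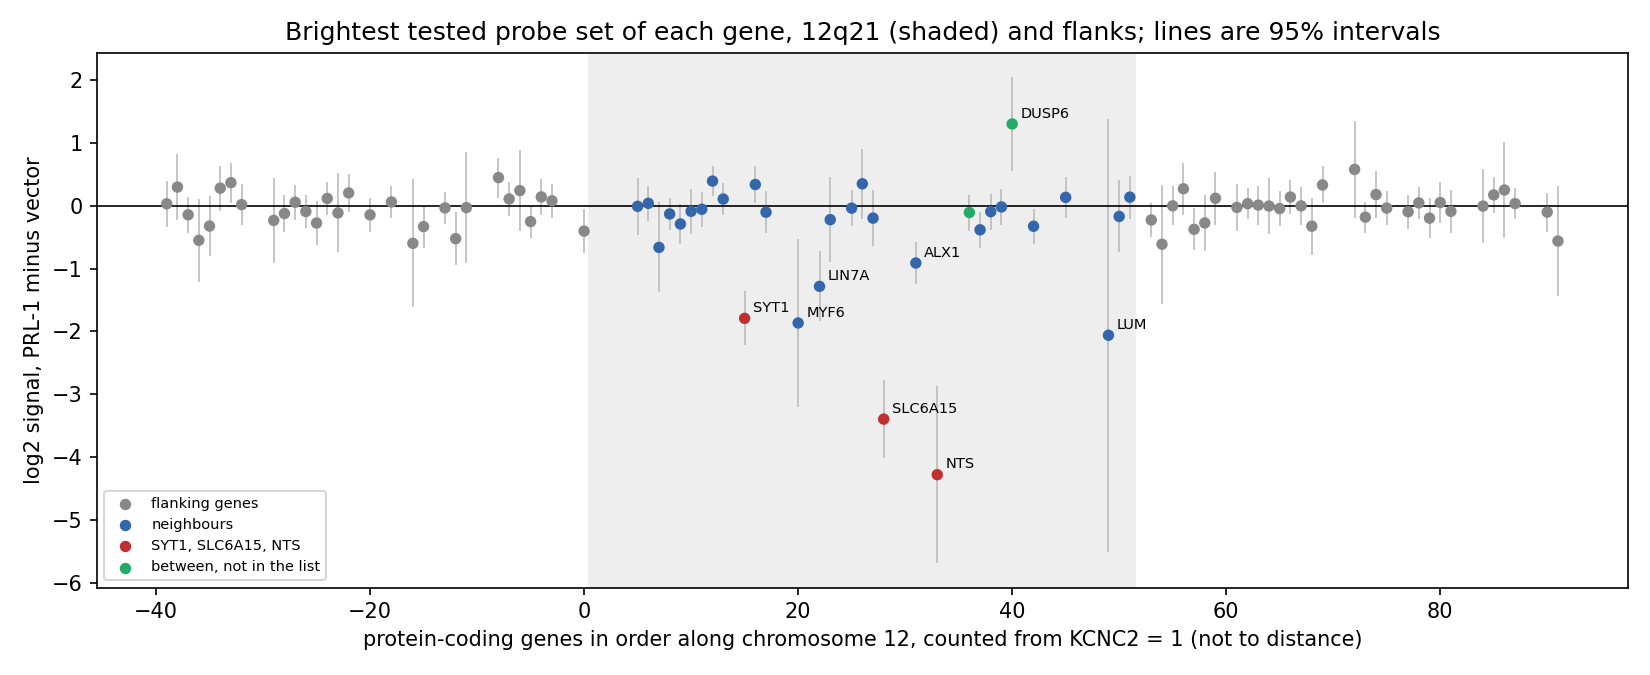
Log2 difference, PRL-1 minus vector (y axis), of the brightest tested probe set of each protein-coding gene. Genes are in order along chromosome 12 (x axis, KCNC2 = 1, evenly spaced), and lines are 95% limma intervals. SYT1, SLC6A15 and NTS were chosen for these values, so their intervals are not a test. The flanking genes (grey) lie between -0.61 and 0.58, SYT1, SLC6A15 and NTS (red) at -1.79 to -4.28, and MYF6, LIN7A and ALX1 between them at -1.87 to -0.91, while the other neighbours except LUM and PHLDA1 lie within 0.40 of 0; green marks DUSP6 (1.30) and RLIG1 (-0.11), which are not in the list.

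Relatives of the 3 genes elsewhere in the genome were also examined. Of 20 synaptotagmins and synaptotagmin-like genes on the array 14 were tested, with a median log2 difference of -0.11. Of 17 other SLC6 transporters 13 were tested, with a median of -0.25. Of 12 neurotensin receptors, sortilins and enzymes of prohormone processing 6 were tested, with a median of 0.01. With limma 0 of the 19, 20 and 15 tested probe sets of these lists were called, where 0.192% of all tested probe sets were. So few probe sets at that share do not set the families apart from the array. At an unadjusted p under 0.05 the synaptotagmins had 1 lower and 2 higher and the transporters 1 lower and 0 higher. The neurotensin list had 0 lower and 2 higher, where 9.72% of all tested probe sets passed in either direction.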

How the data were processed

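RNA of 5 HEK293 cultures was hybridized to HG-U133 Plus 2.0 arrays, 3 of vector cells and 2 of PRL-1 cells. The authors deposited linear MAS5 signals, 1 intensity for each probe set, computed with affy defaults; every array has a trimmed mean of 500 (2% off each tail). MAS5 subtracts mismatch probes and scales arrays, so low signals scatter widely. Precision rests on the few arrays.

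Of 54675 probe sets 62 controls were left out. Those with a signal of at least 100 on at least 2 arrays (33818) were fitted on the log2 scale with limma 3.58.1 in R 4.3.3 (lmFit, eBayes with trend, group as the only term, two-sided), with Benjamini-Hochberg adjustment over all of them and a call at 0.05. The fit was also run on simulated data drawn from its own estimated spread, which cannot test its assumptions. The platform annotation, updated to GRCh38.p14 symbols, gave 41091 probe sets 1 symbol, 1801 several and 11721 none; only the first kind was used. Gene order came from GRCh38.p14 starts. A gene was summarised by its brightest tested probe set (mean log2). "At least" folds set a group under 100 on all its arrays to 100. Named were all probe sets of SYT1, SLC6A15 and NTS, neighbours called or not overlapping at a mean signal of 200 or more, the brightest of each role, and others for context. The members and lists were chosen with earlier results of these data known. Alternatives changed the filter, log offset, normalization, variance model, array weights, replicate block, probe set choice and the arrays used.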

Additional observations from a re-analysis of the deposited data

How the results depend on the processing

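The number of neighbour probe sets called lower was 0 and became 2 (LIN7A and ALX1) with the replicate block, with array weights and without vector replicate 3, so that it ran from 0 to 2 over the arrays left out; it was 0 under the other alternatives, and the number called higher was 0 under all 14. The block holds vector replicate 3 alone in its own level and so removes it from the contrast, and the replicate numbers share nothing by the labels (replicate differences of the groups correlated at 0.0045). Over the whole array 65 probe sets were called, 448 with the replicate block, 275 with array weights, 9 without the trend, 0 by the methods' t-test with Benjamini-Hochberg adjustment, and 11 to 313 with an array left out. By that t-test at an unadjusted p of 0.05, 9 neighbour probe sets were lower and 1 was higher. The neighbour median of -0.10 stayed between -0.15 and -0.05 under 15 alternatives. The centromeric flank median of -0.03 was -0.10 without the filter. The telomeric flank median of -0.00 was 0.038 after median centring and 0.047 without _x_at and _s_at probe sets. The median of the 7 tested probe sets of SYT1, SLC6A15 and NTS was -4.28, -3.91 with the filter at 200, -2.78 with the log offset of 32, and -4.69 to -3.58 with an array left out; for these dim signals the size depends on how low values are treated. Where a single PRL-1 array remained, its spread was taken from the vector group. Signals under 100 limit what can be said of 10 of the 36 neighbours, which were not tested.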
